A study of Mus musculus with 6 samples.

Results

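The NeuroD family and the locus of the Nex-Cre driver were followed through 9 of the 35519 gene names on the arrays: Neurod1, Neurod2, Neurod4, Neurod6 (also called Nex), Neurog2, Bhlhe22, Nhlh1, Nhlh2 and Gm3279. The first 8 were chosen by name as neuronal bHLH genes, with earlier results of these data known. Every probe that carried their names was taken. Gm3279, the non-coding gene next to Neurod6, was picked for its large difference between the groups on these arrays, so its values are a description and carry no test. The 9 genes were read by 11 probes: Neurod1 and Nhlh1 had 2 probes each, and the others had 1. All 11 probes passed the filter on dim signal. All were well above background on the 6 arrays except that of Nhlh2, which was so on 4.

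Total RNA came from the primary somatosensory cortex (S1, which takes in touch) of C57BL/6 mice at postnatal day 7, and was read on 1 single-colour (Cy3) Agilent array per sample. The series design gives the 3 control samples as floxed for Lhx2 (Lhx2f/f) without Cre, whereas their own titles and descriptions call them wild-type. The 3 samples labelled Lhx2_cKO carried floxed alleles together with Nex-Cre (Lhx2f/f;Nex-Cre). By that design both groups share the floxed alleles. They differ in the Cre as well as in its action on Lhx2, a LIM-homeodomain transcription factor gene. If the controls were wild-type, the groups would differ in the floxed alleles too, and the labels do not settle this. Nex-Cre acts in young excitatory neurons of the cortex, and other cells of the dissected tissue keep the floxed gene. The labels give no Cre-only control, nor do they name the animals; if samples share one, the spread behind each p-value may be technical, and p-values cover no more than the variation among these samples.

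The NeuroD proteins are basic helix-loop-helix (bHLH) transcription factors. They pair with an E protein, bind DNA at short sites called E-boxes, and turn on genes of neuronal differentiation. In the cortex, Neurog2 acts in progenitors, Neurod1 in newborn excitatory neurons, and Neurod2 and Neurod6 stay on in maturing ones, while Bhlhe22 acts mostly as a repressor in neurons after their last division. Nex-Cre mice carry Cre in the Neurod6 gene, so Neurod6 and the genes beside it lie at the site that differs by construction between the groups.

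Probe and promoter sequences are given for the genes on which the values below turn. The 5′ of the 2 Neurod1 probes (chr2:79294309-79294368, mm9, minus strand) and the Gm3279 probe (chr6:55644473-55644532, mm9, plus strand) are those of the array files. Each sequence occurred once among the array's probes, and no member probe shared a run longer than 9 bases with another.
Neurod1 probe: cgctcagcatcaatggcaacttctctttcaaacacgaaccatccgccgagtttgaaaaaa
Gm3279 probe: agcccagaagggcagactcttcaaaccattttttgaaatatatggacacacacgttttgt

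The 250 bases before the start of Neurod1, Neurod6 and Gm3279 follow as RefSeq gives them on GRCm38.p6, 5′ to 3′ on the strand of the gene. Capitals mark E-boxes, the palindromic pattern CANNTG. Neurod1 spans chr2:79456637-79456886 (minus strand), Neurod6 chr6:55681264-55681513 (minus strand) and Gm3279 chr6:55684321-55684570 (plus strand).
Neurod1 promoter: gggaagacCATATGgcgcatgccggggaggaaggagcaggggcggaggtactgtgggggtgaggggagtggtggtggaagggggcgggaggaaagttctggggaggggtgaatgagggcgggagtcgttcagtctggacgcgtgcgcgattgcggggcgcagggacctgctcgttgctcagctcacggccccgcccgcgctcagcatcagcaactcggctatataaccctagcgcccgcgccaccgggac
Neurod6 promoter: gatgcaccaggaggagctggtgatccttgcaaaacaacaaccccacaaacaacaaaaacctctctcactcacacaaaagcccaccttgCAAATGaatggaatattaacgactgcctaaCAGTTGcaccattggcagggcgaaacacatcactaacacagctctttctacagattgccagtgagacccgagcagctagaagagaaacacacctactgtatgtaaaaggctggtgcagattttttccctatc
Gm3279 promoter: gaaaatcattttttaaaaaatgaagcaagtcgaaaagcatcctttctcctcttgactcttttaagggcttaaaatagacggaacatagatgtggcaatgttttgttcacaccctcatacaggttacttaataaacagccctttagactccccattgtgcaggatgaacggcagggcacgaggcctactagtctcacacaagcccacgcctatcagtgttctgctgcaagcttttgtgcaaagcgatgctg

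The Neurod1 window held 1 E-box, of the form CATATG. That of Neurod6 held 2 of other forms, and that of Gm3279 held 0. CANNTG matched 66.2% of 32817 promoter windows of this length, and CATATG matched 3.47%. Promoters were found for 8 of the 9 genes. Neurod2 held 3, 1 of them CATATG, Nhlh2 held 2, Nhlh1 held 1, and Neurod4 and Neurog2 held 0. A match is a description of the letters, and its absence says only that they are not in this window.

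The targeted gene was read first, as a check of the labels. The Lhx2 probe read 4.43, 4.55 and 4.78 on the arrays labelled cKO and 3.49, 3.51 and 3.44 on the control arrays, on a log2 scale where 0 is the 75th percentile of that array, used for every level below. Signal was thus higher on all 3 arrays labelled cKO, by 1.1 (SE 0.11, limma, adjusted p = 0.089), and it passed under 4 other settings. The labels do not name the floxed exons, and a probe outside them checks nothing. Because more signal is the opposite of a lost transcript, the group is named by its label throughout (the arrays labelled cKO), and each direction rests on that label.

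Over all 50037 tested probes, 0 passed an adjusted p of 0.05 by limma with Benjamini-Hochberg adjustment (0%), while 3400 had an unadjusted p under 0.05 (6.79%). The count depended on the fit: 120 probes passed with array weights and 118 with an intensity trend and robust variances. The 2 groups did not overlap for 12.7% of probes, and the arrays labelled cKO lay wholly above control for 6.79%. Against this background, 0 of the 10 family probes passed, 4 had an unadjusted p under 0.05, all higher on the arrays labelled cKO (2.9% of all probes were so), and 3 lay wholly above control. Those 3 were both Neurod1 probes and that of Neurod6, and the fourth with a small p was that of Neurod2. The median difference over the family was 0.24, beside 0.02 over all probes, with 9 probes positive and 1 negative. Over 21 other ways of processing, the number at an unadjusted p under 0.05 was 2 to 5. Because the family was chosen with earlier results of these data known, its counts beside those of all probes are a description.

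**Figure D1:**
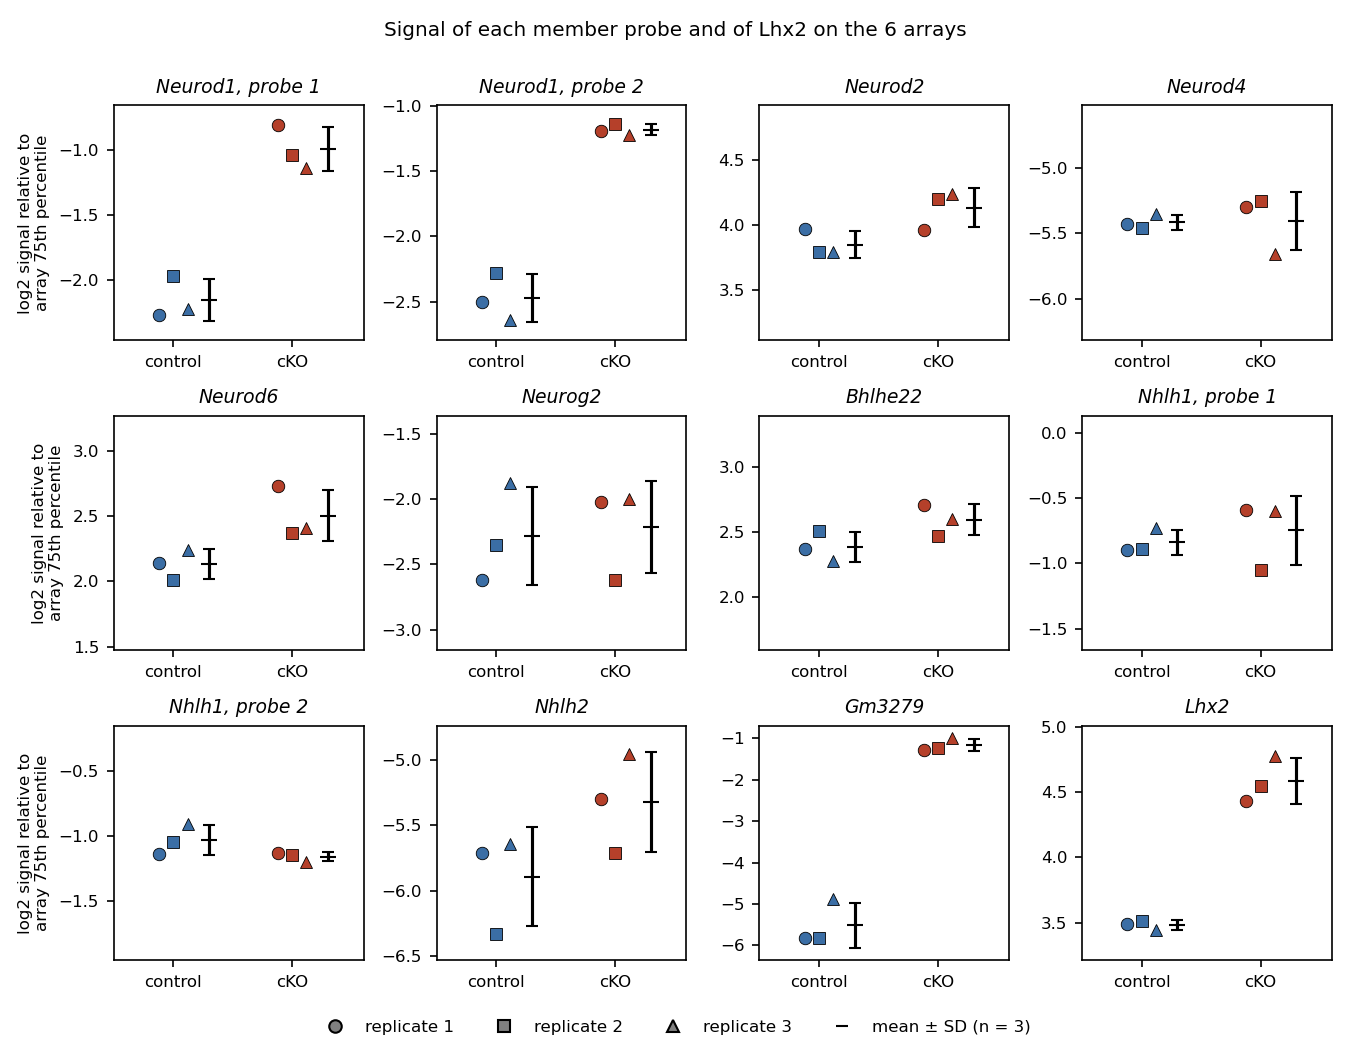
Log2 signal, with 0 at each array's own 75th percentile (vertical axis, scaled per panel) for each member probe and for Lhx2 on the 3 control (blue) and 3 cKO-labelled (red) arrays; bars are mean ± SD, and replicate numbers do not pair arrays across groups. Both Neurod1 probes, Neurod6, Gm3279 and Lhx2 show 3 red points above every blue point, whereas the groups overlap for the other probes.

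Neurod1, which drives newborn neurons toward differentiation and is best known in the brain for the granule cells of dentate gyrus and cerebellum, had the largest tested difference of the family. Its 5′ probe read -0.81, -1.04 and -1.14 on the arrays labelled cKO and -2.27, -1.97 and -2.22 on the control arrays. The groups were separated by a gap wider than the range within either group. The means were -1.0 ± 0.17 and -2.16 ± 0.16 (SD, n = 3 each), a log2 difference of 1.16 (SE 0.13, 95% interval 0.85 to 1.47), or 2.23-fold. The adjusted p was 0.098 (limma), which missed the threshold, and the unadjusted p ranked 31 among all probes.

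The 3′ Neurod1 probe (chr2:79293621-79293680, mm9, minus strand) starts 688 bases away and reads a different stretch of the transcript. It read -1.19, -1.14 and -1.22 on the arrays labelled cKO and -2.50, -2.28 and -2.64 on the control arrays. Again the groups stood apart, and the arrays labelled cKO were the tighter of the 2 groups. The means were -1.18 ± 0.04 and -2.47 ± 0.18 (SD, n = 3 each), a difference of 1.29 (SE 0.12, 95% interval 1.01 to 1.56), or 2.44-fold, with an adjusted p of 0.078 (limma) that ranked 8. In processed intensity this was 413 to 440 units against 143 to 219. Both probes sample the same RNA on the same arrays and are not independent replicates of the difference.

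Both Neurod1 probes passed the adjusted threshold under 4 other ways of processing (array weights, intensity trend with robust variances, and normexp background correction under either scaling), with adjusted p between 0.0056 and 0.039. Each of those fits called 2 of the 10 family probes, both of Neurod1, against 0 in the fit reported. Over all 50037 tested probes, 120 were called with array weights and 118 with the trend. With normexp, 92 were called under 75th percentile scaling and 85 under quantile scaling. Neither Neurod1 probe passed with any 1 array left out, at adjusted p between 0.13 and 0.35 (limma). Control replicates 1 and 3 carried Y-linked signal and the other 4 arrays did not. With a term for Y-linked signal the Neurod1 differences were 1.01 and 1.11, and neither passed (adjusted p = 0.78 and 0.6, limma). Without those 2 arrays, which leaves 1 control array assumed to vary like the others, the Neurod1 differences were 0.98 and 1.1. The 6 arrays lay on 1 slide, and rows 1 and 2 of it each held 1 array of each group. The row 1 pair differed by 1.23 and 1.35, and the row 2 pair by 0.84 and 1.06. In bulk tissue, fewer or more cells of a type and less or more RNA per cell cannot be told apart.

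Neurod2, a factor of maturing excitatory neurons that acts in thalamocortical wiring, read 3.96, 4.2 and 4.24 on the arrays labelled cKO and 3.97, 3.79 and 3.79 on the control arrays (probe at chr11:98187943-98188002, mm9). Replicate 1 of each group was at nearly the same level, so the groups overlapped. The difference was 0.28 (95% interval 0.01 to 0.56, adjusted p = 0.73, limma).

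Neurod6, the gene that carries Cre in the Nex-Cre line, read 2.73, 2.37 and 2.41 on the arrays labelled cKO and 2.14, 2.01 and 2.24 on the control arrays (probe at chr6:55628006-55628065, mm9, minus strand). All 3 arrays labelled cKO were above every control array, with replicate 1 the highest. The difference was 0.38 (SE 0.13, 95% interval 0.06 to 0.69), or 1.3-fold, at an unadjusted p of 0.025 and an adjusted p of 0.62 (limma). Without the arrays with Y-linked signal it was 0.50, and within slide rows 1 and 2 it was 0.23 and 0.40. It kept its sign under all 24 alternatives, between 0.23 and 0.50, and passed under none. The position of the Cre insertion relative to the probe was not worked out.

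Neurod4, a bHLH factor prominent in retina and midbrain, was dim on every array, between -5.66 and -5.25, which is 20.2 to 25.2 intensity units. The groups overlapped, and the difference was 0.01 with an interval of -0.31 to 0.32.

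Neurog2, the proneural factor of cortical progenitors that lies upstream of Neurod1, ranged from -2.62 to -2.0 on the arrays labelled cKO and from -2.62 to -1.88 on the control arrays. The groups covered nearly the same range. The difference was 0.07 (SE 0.24, 95% interval -0.51 to 0.65, adjusted p = 1, limma). Both Neurod1 differences lie above that interval, but Neurog2 and Neurod1 were not tested against each other.

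Bhlhe22 (written Bhlhb5 in older sources), a repressor that shapes sensory area identity and the projections of cortical neurons, read 2.71, 2.47 and 2.60 on the arrays labelled cKO and 2.37, 2.51 and 2.28 on the control arrays (probe at chr3:17956925-17956984, mm9). Of the arrays labelled cKO, 2 lay above every control array, and replicate 2 did not. The difference was 0.20 (95% interval -0.06 to 0.47, adjusted p = 0.88, limma).

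Nhlh1 and Nhlh2, factors of newly born neurons, closed the family. The Nhlh1 probes, with starts 4731 bases apart, differed in sign, at 0.10 (95% interval -0.26 to 0.45) and -0.13 (95% interval -0.36 to 0.11). On both the groups overlapped, and neither sign can be taken from these arrays. The Nhlh2 probe read -5.30, -5.71 and -4.95 on the arrays labelled cKO and -5.71, -6.33 and -5.64 on the control arrays. It was dim and not well above background on cKO replicate 2 and control replicate 2. Its difference of 0.57 (95% interval -0.04 to 1.18, adjusted p = 0.77, limma) was -0.01 within slide row 1 and 1.38 within row 2, so it had no settled size.

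**Figure D2:**
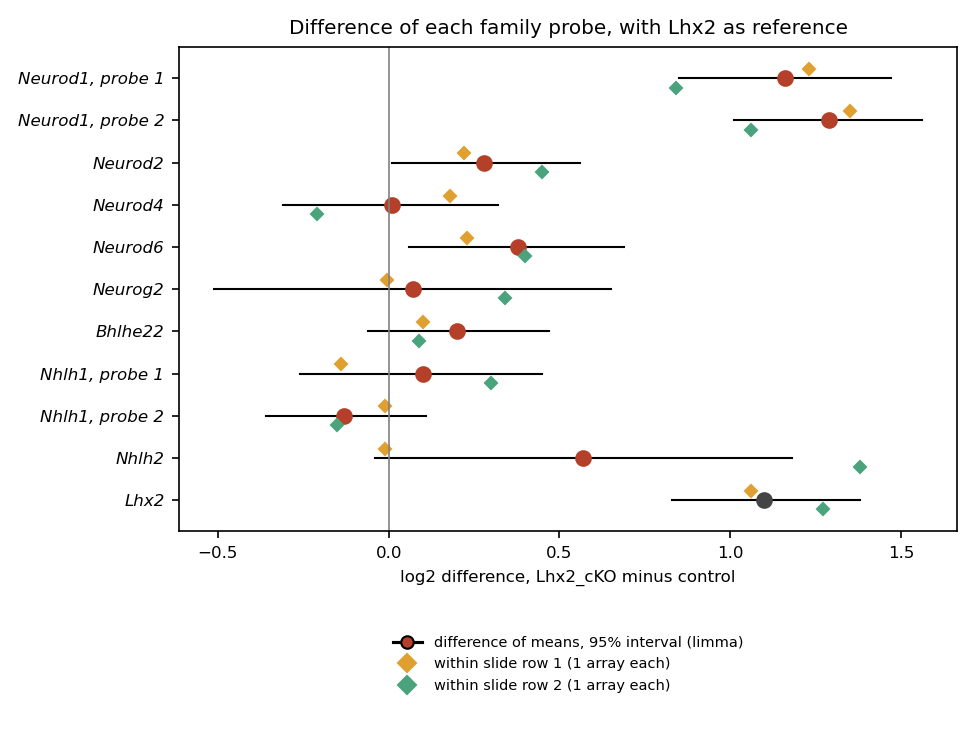
Log2 difference, arrays labelled cKO minus control (horizontal axis), for the 10 family probes and Lhx2: circles are differences of group means (n = 3 each), lines their 95% limma intervals, and diamonds the differences within the 2 slide rows that held both groups (1 array each). The Neurod1 intervals start at 0.85 and 1.01, those of Neurod2 and Neurod6 start just above 0, and the rest of the family spans 0.

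Gm3279, an annotated long non-coding RNA gene of unknown role, lies beside Neurod6. RefSeq places Neurod6 at chr6:55677818-55681263 on the minus strand and Gm3279 at chr6:55684571-55694574 on the plus strand (GRCm38.p6). The 2 genes are therefore head to head, with starts 3308 bases apart, and their probes lie 16.4 kb apart on mm9.

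The Gm3279 probe read -1.27, -1.23 and -0.99 on the arrays labelled cKO and -5.83, -5.83 and -4.89 on the control arrays. In intensity this is 411, 390 and 517 against 18.5, 18.7 and 30, all well above background. Control replicate 3 was the brightest control array and still far below the dimmest array labelled cKO. The means were -1.16 ± 0.15 and -5.52 ± 0.54 (SD, n = 3 each), a difference of 4.35, or 20.5-fold, the value for which the gene was chosen. It was the fifth largest positive difference on the array. Only 116 probes (0.232%) exceeded 1. Under normexp correction, which adds 50 units to every spot and so compresses dim values, the difference was 2.61 or 2.58 by scaling. Within slide rows 1 and 2 it was 4.60 and 4.84. The Neurod6 probe, on the other strand, differed by 0.38 on the same arrays.

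Around the locus, 21 probes of 17 other gene names lay within 1 Mb of the Neurod6 probe, and all were tested. Of these, 0 passed an adjusted p of 0.05 (limma), and 7 (33.3%, against 6.79% of all probes) had an unadjusted p under 0.05, with 3 higher and 4 lower on the arrays labelled cKO. The groups did not overlap for 8 of the 21 probes (38.1%, against 12.7%), 4 in each direction, and the median difference was 0.0012. The extremes were -0.72 and 0.62, so no neighbour came near the value of Gm3279. Neighbours share a locus and arrays and are not independent. Without the arrays with Y-linked signal, 3 of the 21 had an unadjusted p under 0.05 (3.58% of all probes did).

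Znrf2, a ubiquitin ligase gene 789 kb from the Neurod6 probe on the side away from Gm3279, read 0.70, 0.52 and 0.55 on the arrays labelled cKO and -0.01, -0.01 and -0.08 on the control arrays. The groups stood apart, by 0.62 (adjusted p = 0.16, limma). It passed with an intensity trend and under both normexp settings, at adjusted p of 0.03, 0.047 and 0.047. Znrf2 did not pass with a term for Y-linked signal (difference 0.61). Nor did it pass with any 1 array left out (adjusted p 0.3 to 0.65, limma). Both Mturn probes, 979 and 978 kb away, were higher by 0.30 and 0.32. A probe for 2610209C05Rik, 832 kb away, was lower by a difference of -0.72 (adjusted p = 0.23), whereas a second probe of that name on the other strand differed by 0.02.

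Nearer to Neurod6, the clone CB521226, whose probe lies 10.3 kb away on the side opposite Gm3279, differed by 0.08 with overlapping groups. Adcyap1r1, the receptor of the neuropeptide PACAP, at 177 kb, was lower on all 3 arrays labelled cKO (difference -0.26, adjusted p = 0.67, limma). Itprid1 at 300 kb was also lower on all 3 (-0.37, adjusted p = 0.46), and Nod1, an innate immune sensor, differed by -0.25. Ppp1r17 at 354 kb differed by 0.18. The groups overlapped for the rest of the neighbours, among them Gars (0.13), Crhr2 (0.03), Inmt (0.01), Mindy4 (-0.08), the water channel gene Aqp1 (-0.28), Ggct (0.03) and the 3 Pde1c probes (-0.15, -0.11 and 0.00). In the wider window of 5 Mb, 17 of 173 tested probes (9.83%, against 6.79% of all probes) had an unadjusted p under 0.05, 9 higher and 8 lower. The median difference there was 0.02, with extremes of -0.72 and 1.49.

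**Figure D3:**
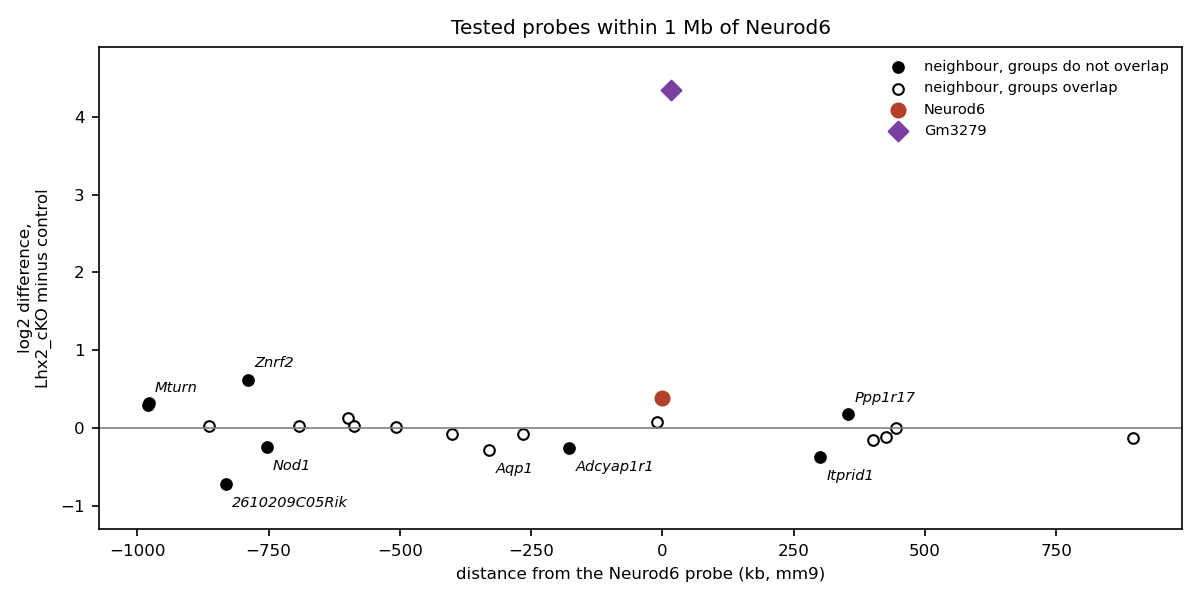
Log2 difference, arrays labelled cKO minus control (vertical axis), against distance in kb from the Neurod6 probe on mm9 (horizontal axis) for the 21 neighbouring probes, Neurod6 (circle) and Gm3279 (diamond); filled black points are neighbours whose groups do not overlap. Gm3279 stands at 4.35, while every neighbour lies between -0.72 and 0.62.

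Genes that work with the family were read from 5 lists of partners, inhibitors and linked genes, 48 genes in all, of which 0 passed an adjusted p of 0.05 (limma). Among 15 other proneural and neural bHLH genes the median difference was -0.04, and 1 had an unadjusted p under 0.05 (6.79% of all probes did). Bhlhe40, a bHLH repressor of clock and activity programmes, read 0.42, 0.31 and 0.11 on the arrays labelled cKO and -0.60, -0.53 and -0.78 on the control arrays. Its groups stood apart by 0.92 (adjusted p = 0.13), and it passed with an intensity trend and under both normexp settings (adjusted p 0.017, 0.019 and 0.038). Bhlhe40 did not pass with a term for Y-linked signal (difference 0.82). Nor did it pass with any 1 array left out (adjusted p 0.28 to 0.48, limma). Ferd3l differed by 0.43 and Olig2, of the oligodendrocyte lineage, by -0.21.

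The 3 E proteins, the partners with which NeuroD factors bind DNA, differed by -0.18 (Tcf4), -0.06 (Tcf12) and -0.05 (Tcf3), with overlapping groups. Of 13 Id, Hes and Hey genes, which block bHLH activity or repress proneural genes, the median was -0.13, and without overlap 1 was higher (6.79% of all probes) and 4 lower (5.87%). Id4 differed by -0.48 (adjusted p = 0.43), Id3 by -0.32 (-0.18 without control replicate 3), Id2 by -0.25 and Hes5, a Notch target, by 0.34 (adjusted p = 0.65).

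Among 6 genes linked to NeuroD or Bhlhe22 function, the median was 0.04 and 1 was higher at an unadjusted p under 0.05 (2.9% of all probes were so). That gene was Gap43, which encodes a growth cone protein (0.30, adjusted p = 0.56, limma). Cdh11, a cadherin gene, differed by 0.42, Prdm8, whose product works with Bhlhe22, by -0.23, and Dlg4, a postsynaptic scaffold gene, by 0.11 (-0.14 without control replicate 3 and -0.1 without cKO replicate 2, so its sign is not settled). Of 11 genes of the Myt1 family and other differentiation partners, 2 were lower at an unadjusted p under 0.05 (3.9% of all probes were so). Their median was -0.12 over the 11 genes. Scrt1 differed by -0.84 (adjusted p = 0.43), Ebf1 by -0.64, St18 by -0.91 and Insm1 by -0.64. A single control array carried most of the Ebf1 and Insm1 differences: without control replicate 3 Ebf1 differed by -0.14 and Insm1 by -0.23. The St18 control arrays were spread widely, at -4.06, -2.49 and -3.27, and without control replicate 2 St18 differed by -0.52.

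**Figure D4:**
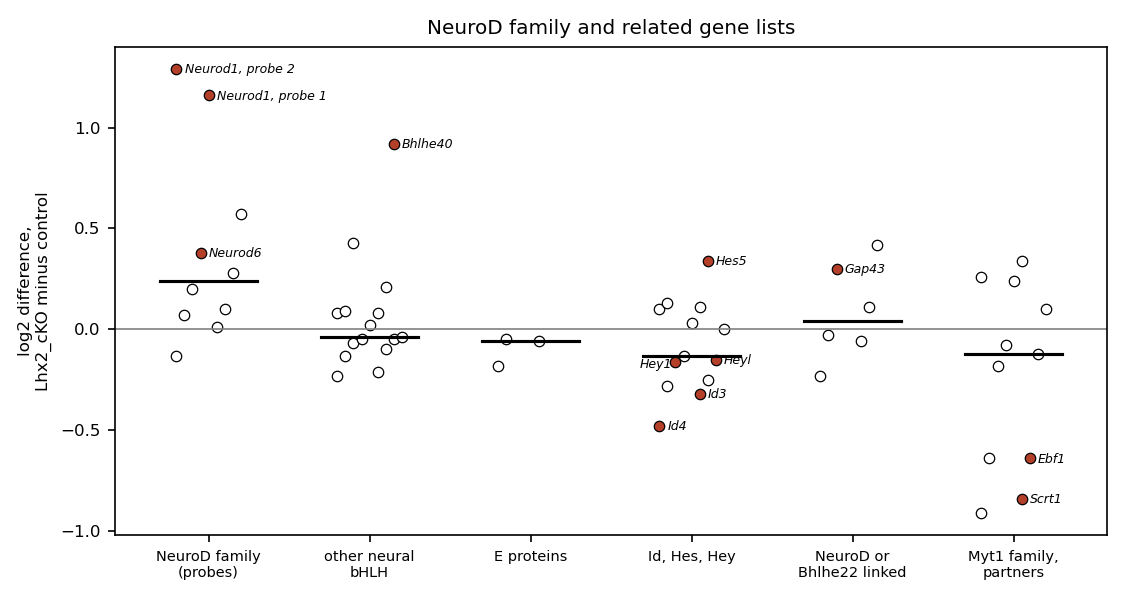
Log2 difference, arrays labelled cKO minus control (vertical axis), for the 10 family probes and, in 5 lists, 1 point per gene; red points have groups that do not overlap and bars are list medians. Both Neurod1 probes lie above the highest list gene, Bhlhe40 at 0.92, and the medians run from -0.13 to 0.24.

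Markers of the cell types that the tissue could hold were read beside these values. Every tested marker was well above background on all 6 arrays, those of excitatory cortical neurons included. At an unadjusted p under 0.05, 2.9% of all probes were higher on the arrays labelled cKO and 3.9% lower. Of 7 excitatory markers, 2 were higher and 2 lower at that level: Tbr1 differed by 0.33 and Emx2 by 0.32, Emx1 by -0.91 and Slc17a6 by -0.35. Of 7 markers of progenitors and newborn neurons, cells that use Neurog2 and Neurod1, 1 was higher, Stmn1 (0.33). Their medians, relative to the control mean, were 0.09 to 0.24 on the arrays labelled cKO and -0.19 to 0.28 on the control arrays, so the groups overlapped. Of 7 hippocampal and dentate markers, 5 passed the dim filter. Their medians were -0.13 to 0.07 against -0.04 to 0.02, so the groups overlapped. Lct was the only one with an unadjusted p under 0.05, at -1.94, -1.43 and -1.43 on the arrays labelled cKO and -0.28, -0.11 and -1.42 on the control arrays (difference -0.99, adjusted p = 0.64, limma). Control replicate 3 lay just above the arrays labelled cKO. Wfs1 differed by 0.27 and by -0.22 without cKO replicate 1, and Prox1, a marker of dentate granule cells named after its value was seen, by 0.02.

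Lists of glial and inhibitory cells stood further apart between the groups, with 0 markers called. Of all probes, 3.9% were lower at an unadjusted p under 0.05. All 6 astrocyte markers were, with medians of -0.50 to -0.40 on the arrays labelled cKO against -0.03 to 0.04. Of 7 microglial markers, 6 were lower at an unadjusted p under 0.05, with medians of -0.97 to -0.34 against -0.01 to 0.03. All 12 inhibitory neuron markers differed negatively at the 1 probe read per gene, 2 at an unadjusted p under 0.05. Their medians were -0.36 to -0.20 against -0.04 to 0.13. The other probes of Slc32a1, Lhx6 and Pvalb differed by 0.01, 0.03 and -0.14. Oligodendrocyte medians were -0.20 to -0.09 against -0.03 to 0.01. The groups overlapped for endothelium (-0.20 to 0.09 against -0.09 to 0.09) and thalamus (-0.23 to 0.08 against -0.12 to -0.0028), where 1 marker did not pass the dim filter. They overlapped too for striatum, at 0.21, -0.46 and -0.51 on the arrays labelled cKO and -0.28, -0.23 and 0.51 on the control arrays, with cKO replicate 1 and control replicate 3 the high ones. Meningeal medians were -0.44, -1.16 and 0.30 against 0.22, -0.25 and 0.00013, with cKO replicate 2 the lowest. The part of these differences in the values of the NeuroD family was not tested.

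The named genes with the pattern most like that of a member were found from the root mean square difference of centred log2 values over the 6 arrays. For Neurod6, whose own values spread by 0.23 on that measure, they were Tsga13 (0.0446), Wipf3 (0.0465) and Vmn2r18 (0.0545). For Gm3279, with a spread of 2.2, they were Aldh1a3 (0.654), an enzyme gene of retinoic acid synthesis, and the receptor genes Tacr1 (1.18) and Avpr1a (1.48). Aldh1a3 differed by 3.93 between the groups, Tacr1 by 2.04 and Avpr1a by 1.56. Gm3279 was picked for its difference of 4.35, so this measure favours genes with large positive differences. Tacr1 and Avpr1a were next in order but not close to Gm3279 beside its spread. For the 3′ Neurod1 probe, added after values were seen, they were Grp (0.0912), Rspo2 (0.125) and Flrt3 (0.125), whose differences of 1.21, 1.35 and 1.05 lie beside 1.29. For the 5′ Neurod1 probe they were Vegfd (0.111), Grp (0.119) and Flrt3 (0.123), so Rspo2 was among the 3 nearest for the 3′ probe only. With 6 arrays and 50037 probes, such likeness describes these arrays.

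**Figure D5:**
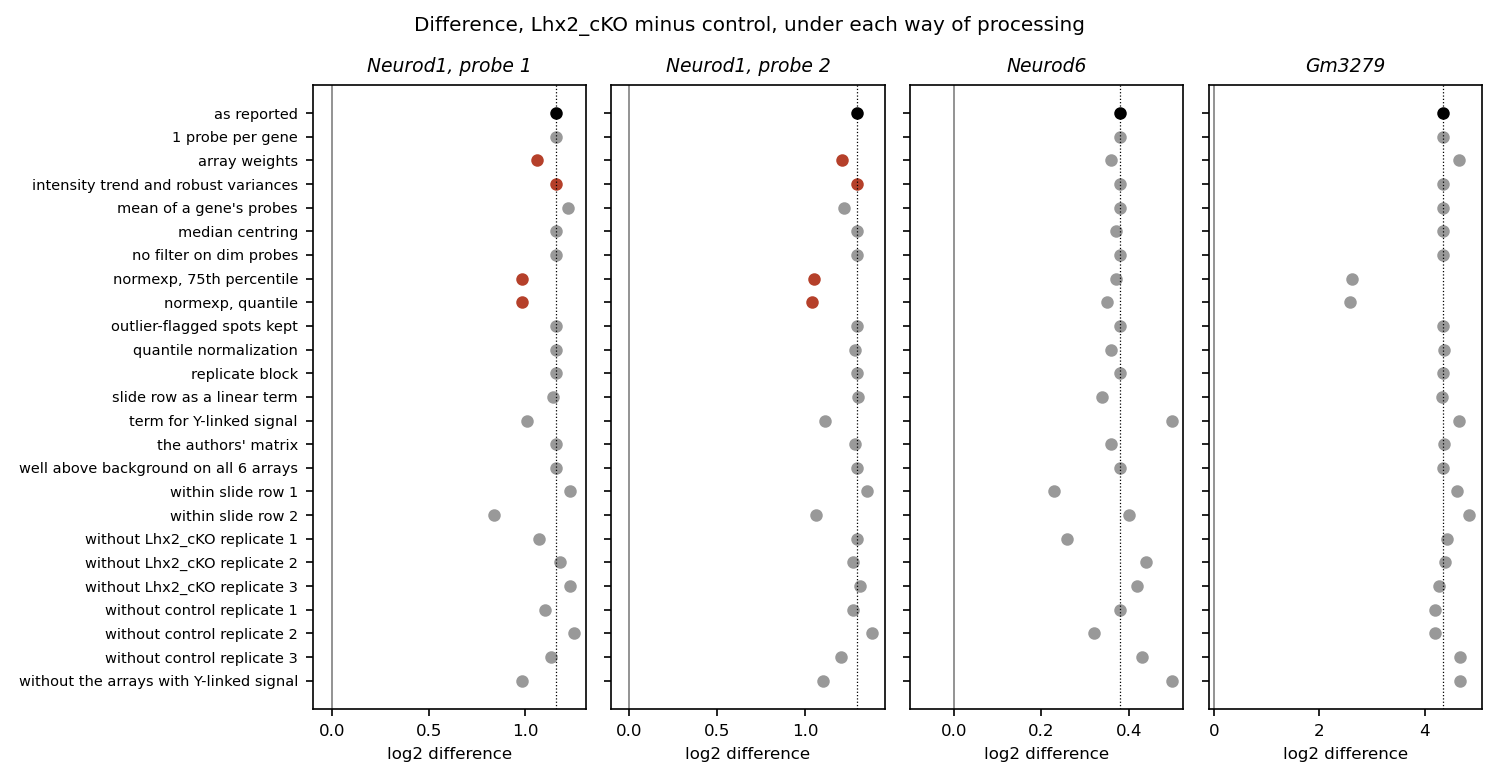
Log2 difference, arrays labelled cKO minus control (horizontal axes, scaled per panel), of both Neurod1 probes (probe 1 is the 5′ one), Neurod6 and Gm3279 under each way of processing (rows); black is the value reported, and red marks settings with an adjusted p under 0.05 (none is given for Gm3279). Neurod1 stays between 0.84 and 1.38 over both probes and Neurod6 between 0.23 and 0.50, while Gm3279 lies at 2.61 and 2.58 with normexp.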

How the data were processed

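The deposited scanner files hold, per the file headers, processed spot intensities of 1-colour arrays, background-subtracted and detrended but not scaled between arrays; raw mean and background intensities were read too. The authors' series matrix holds log2 values that match quantile-normalized signals minus each probe's median (95% within 0.00197; column medians -0.0064 to 0.00645); no label or header says how it was made, and it served as an alternative.

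Each processed signal was divided by its array's 75th percentile (889 to 1064 units) and put on the log2 scale, leaving out controls and spots flagged as outliers (112 to 198 per array), with spots of a probe averaged. The share of spots well above background was 86.7% to 91.1%, with 0 saturated. The number of arrays limits the precision. Probes well above background on at least 3 of 6 arrays were tested: 50037 of 55681, with 32704 gene names. The groups were compared per probe with limma 3.58.1 (R 4.3.3; lmFit, eBayes, two-sided, Benjamini-Hochberg over all tested probes, threshold 0.05); the fit was tested on simulated data. Intervals are 95% intervals of that fit.

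Names were updated through a RefSeq table of GRCm38.p6: 28331 probes by accession, 421 by another accession, 2036 by symbol, 162 by synonym, and 24731 kept the name of the file. Probe positions are on mm9, and exon or UTR annotation on mm9 was not used. The members and lists were chosen with earlier results of these data known. A list gene was read by its tested probe with the highest mean. In the partner lists 1 gene is not reported here, and the list counts and medians leave it out. Named were all member probes and Lhx2; up to 12 named neighbours nearest Neurod6; up to 4 genes per partner list by smallest p and up to 2 per marker list by highest mean; and the 3 most similar named genes. Further names were chosen after their values were seen. Replicate numbers did not pair the samples: same-numbered deviations correlated at -0.174, 0.069 and 0.155. Other scalings, background corrections, filters, probe rules, variance models, slide row, Y-linked signal and leaving out each array were tried as alternatives.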

Additional observations from a re-analysis of the deposited data

How the results depend on the processing

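The number of probes called over the whole array was 0 as reported. It was 1 with quantile normalization, the authors' matrix or a filter on all 6 arrays, 2 with 1 probe per gene, the mean of a gene's probes or a term for Y-linked signal, and 10 with median centring. It was 85 and 92 with normexp under quantile and 75th percentile scaling, 118 with an intensity trend and robust variances, and 120 with array weights; leaving out 1 array gave 0 to 10. Of these, 49, 54, 68 and 53 were higher on the arrays labelled cKO. Family probes called were 2 (both of Neurod1) under the last 4 settings, and 1 neighbour (Znrf2) and 1 list gene (Bhlhe40) were called under both normexp settings and the trend; leaving out 1 array called 0 of each. The 5′ Neurod1 probe gave 1.06 (adjusted p = 0.039, limma) with array weights, 1.16 (0.012) with the trend, 0.98 (0.013) and 0.98 (0.023) with normexp, 0.84 within slide row 2, and 1.07 to 1.25 with 1 array left out. The 3′ probe gave 1.21 (0.019), 1.29 (0.0064), 1.05 (0.0056), 1.04 (0.016), 1.06 within row 2, and 1.2 to 1.38. Gm3279 gave 2.61 and 2.58 with normexp, and 4.2 to 4.67 with 1 array left out. In the fits, signs reversed for 3 probes with differences near 0: Neurod4 (-0.11 with array weights, -0.07 to 0.14 with 1 array left out), Neurog2 (-0.01 with slide row as a term, -0.10 to 0.27) and Nhlh1 (-0.02 with the mean of its probes). The causes were not tested. With the replicate number as a block, 0 probes were called, and the Neurod1 adjusted p were 0.41 and 0.49 (limma); the numbers do not pair the samples. Dim signal limits Neurod4, Nhlh2 and the Gm3279 control values.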
